A study of Mus musculus with 12 samples.

Results

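The S100 genes encode small calcium-binding proteins with a pair of EF-hand loops. Most of these proteins work as dimers and change shape when calcium binds. Inside cells they dock on annexins, myosin and other targets, and several leave the cell and act on surface receptors such as Ager, also called RAGE. In liver they are known from injured bile ducts, scar-forming cells, infiltrating leukocytes and tumour cells. The 10 genes described here were taken by symbol from the 46095 rows of the count table. They are S100a1, S100a4, S100a6, S100a10, S100a11, S100a13, S100a14, S100a16, S100b and S100g, that is, S100 genes other than the neutrophil pair S100a8 and S100a9. S100a11 is the member that the study of these tumours is itself known to have singled out.

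The RNA came from hepatocellular carcinomas that the carcinogen diethylnitrosamine had induced in mouse liver, and all 12 libraries share that treatment. By genotype, 7 libraries are Pck1-null (KO) and 5 are wild type (WT), Pck1 being the cytosolic enzyme that commits carbon to glucose synthesis. Strain, age, sex, the targeted allele, the cells that lack it and the animal behind each library remain not given in the sources used here. The p-values therefore measure only the spread between these libraries.

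Pck1 itself lay between 111 and 1167 CPM (counts relative to library size, after TMM scaling) in KO and between 1063 and 5822 CPM in WT. KO replicate 3 and WT replicate 4 were the pair that overlapped. Total counts were 17462102 to 23663506 in 7 libraries (4 KO, 3 WT), called shallower below, and 43071365 to 46747125 in the other 5 (3 KO, 2 WT), called deeper. The summed CPM of 10 hepatocyte markers was 86700 to 212000 in KO and 81500 to 262000 in WT, so hepatocyte RNA was abundant in each library. Xist, which female cells express from their silenced X, was at 91.0 to 167 CPM in KO replicates 1, 2, 3, 5 and 6 and WT replicate 4, and under 1 CPM in the other libraries, so this Xist class was spread unevenly over the genotypes. In bulk tissue, fewer cells of a type and less RNA per cell cannot be told apart.

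Of the 10 members, 8 lie on mouse chromosome 3. S100a1 (90511034 to 90514330), S100a13, S100a14, S100a16, S100a4 and S100a6 (90612894 to 90614414) fill 103.4 kb, in RefSeq coordinates of GRCm38.p6, the assembly also called mm10. S100a11 (93520496 to 93526288) and S100a10 (93555117 to 93564645) stand 2.91 Mb further along the chromosome and 28.8 kb from each other. S100b is on chromosome 10 (76253836 to 76261319) and S100g on chromosome X (162961992 to 162964599). S100a1 and S100a13 lie head to head on opposite strands, with 42 bases between their starts in GENCODE, and their RefSeq bounds share 98 bases.

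S100a11 and S100a6 had the most positive fitted genotype differences among the members with over 10 CPM in most libraries, so the DNA ahead of their starts is shown. The letters run up to the first annotated base of each gene, both are on the plus strand of GRCm38.p6, and capitals mark matches to TGANTCA, the recognition motif of AP-1 (Jun and Fos dimers), whose reverse complement is the same motif.
S100a11, chr3:93520246-93520487: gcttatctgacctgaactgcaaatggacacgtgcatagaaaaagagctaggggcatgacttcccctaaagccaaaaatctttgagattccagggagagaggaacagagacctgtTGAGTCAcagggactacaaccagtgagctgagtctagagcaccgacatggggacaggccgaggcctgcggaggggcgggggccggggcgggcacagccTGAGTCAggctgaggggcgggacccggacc
S100a6, chr3:90612644-90612881: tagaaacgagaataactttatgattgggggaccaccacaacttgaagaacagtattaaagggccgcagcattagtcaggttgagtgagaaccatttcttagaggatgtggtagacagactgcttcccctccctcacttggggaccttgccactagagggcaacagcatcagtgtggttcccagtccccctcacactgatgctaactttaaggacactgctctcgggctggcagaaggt

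The S100a11 stretch held 2 matches, which begin 136 and 38 bases before the RefSeq start, and the S100a6 stretch held 0. In the RefSeq promoter table, 6.75% of 32851 windows of 250 bases before a start held at least 1 match, and 0.34% held 2 or more. Windows were given for 8 of the 10 members, and the only other match among them was TGAATCA in 1 of the 2 windows of S100a16, 192 bases before that start. A match is a run of letters and does not show that a factor binds there. S100a4 was the member whose window held TATAAA (searched on both strands), 31 bases before its start, as 12.37% of all windows did.

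Levels per length put S100a10, S100a11 and S100a1 ahead of the other members. In CPM per kilobase of exon (GENCODE), the S100a10 median over the 12 libraries was 94.5, with a range of 61.9 to 187. S100a10, called p11, pairs with annexin A2 and differs from its relatives in holding its active shape without calcium. S100a11 followed at 83.4 (35.9 to 224) and S100a1 at 60.6 (35.2 to 155), and the ranges of these 3 genes overlapped. With these exon lengths, their order differed by genotype. The KO medians were 94.1 for S100a11, 90.1 for S100a10 and 48.4 for S100a1. The WT medians were 136 for S100a1, 98.9 for S100a10 and 50.3 for S100a11. S100a16 stood at 20.4 (12.8 to 26.2), S100a13 at 12.6 (7.84 to 22.2), S100a6 at 9.64 (3.24 to 45.3) and S100a4 at 4.99 (2.66 to 13.5). S100g was at 1.46 (0 to 49.6). With the length of the principal transcript in place of all exons, S100a6 and S100a13 exchanged places, at 18.0 and 12.6. S100a10 then stood at 167, against 83.4 for S100a11 and 62.2 for S100a1. The place of S100a10 in the genotype orders above thus depends on the length used. S100b and S100a14 had medians of 0.0159 and 0.

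Expression of the members thus split in 3 tiers per length: S100a10, S100a11 and S100a1 high, S100a16, S100a13, S100a6 and S100a4 in between, and S100g, S100b and S100a14 near 0 in most libraries. The summed CPM of all 10 members was 270 to 326 in KO and 214 to 479 in WT, the highest being WT replicate 4. S100a10 made up 23.9% to 59.0% of that sum in KO and 32.7% to 47.4% in WT.

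In the comparison of KO with WT, edgeR's quasi-likelihood test over 14666 genes called 0 genes higher (0%) and 0 lower (0%) at an adjusted p under 0.05, and so none of the 8 members that passed the filter on low counts. At an unadjusted p under 0.05, 3 of 8 members were counted, S100a6 with a positive and S100a1 and S100a13 with a negative difference, against 14.7% of all genes tested (7.25% higher and 7.44% lower). Signs were even, with 4 positive and 4 negative members where 53.7% of all genes were positive, a median log2 fold change of −0.01 and a median over all genes of 0.03. With the Xist class as covariate, S100a1 alone (−1.19 ± 0.46, adjusted p = 0.371) stayed under an unadjusted p of 0.05. For none of the members did the groups stand wholly apart, as they did for 1.21% of genes. DESeq2 called 259 genes higher (0.986%) and 242 lower (0.922%), with 0 of the 8 members among them, and edgeR counted 2155 genes at an unadjusted p under 0.05. Limma-voom with sample weights called 938 genes higher (6.4%) and 1200 lower (8.18%), S100a6 and S100a11 among the higher and S100a1 and S100a13 among the lower.

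**Figure D1:**
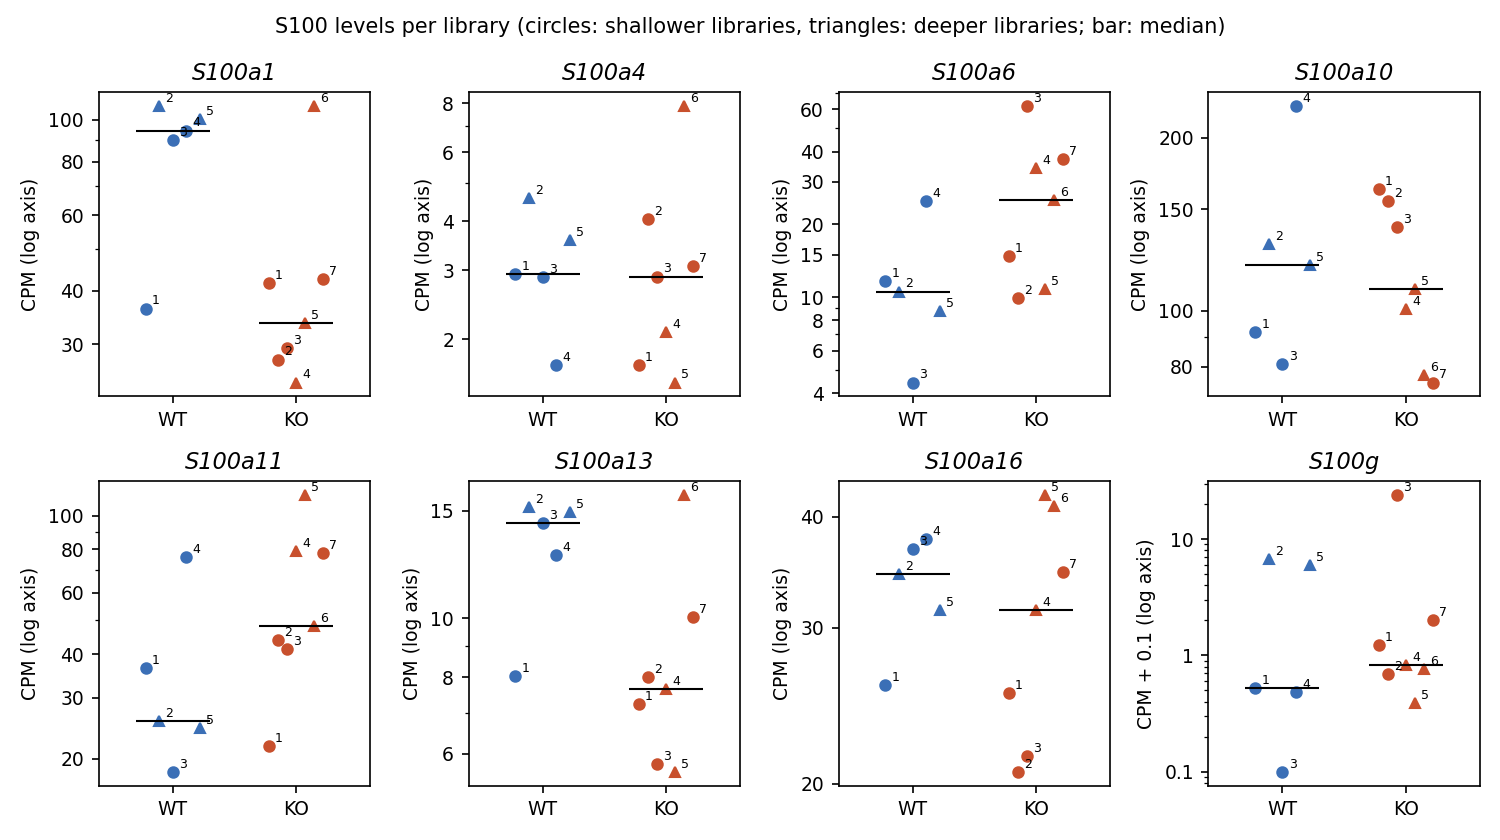
CPM per library on a log axis for the 8 tested S100 genes, WT in blue and KO in red (circles shallower, triangles deeper libraries), with replicate numbers beside the points and bars at group medians (0.1 CPM is added for S100g, whose WT replicate 3 had 0). S100a1 and S100a13 show WT replicate 1 among the KO libraries and KO replicate 6 among the WT libraries.

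S100a1 and S100a13 were lower in most KO libraries, and the same libraries were high or low for both. S100a1, best known as an enhancer of calcium cycling in heart muscle, stood at 36.3, 108, 89.6, 94.5 and 100.3 CPM in WT replicates 1 to 5. In the KO libraries its lowest, median and highest values were 24.4, 33.6 and 108 CPM. The values of 4 KO libraries were under the lowest WT value, while KO replicate 6 was level with the highest WT library. The fitted log2 fold change was −0.97 ± 0.38 (SE), with an edgeR adjusted p = 0.281. Without KO replicate 6 it was −1.37 ± 0.26 with an adjusted p = 0.0485.

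S100a13, which helps the growth factor Fgf1 leave cells without a signal peptide, stood at 8.05, 15.2, 14.3, 12.7 and 14.9 CPM in WT replicates 1 to 5. In the KO libraries it ran from 5.61 over a median of 7.67 to 15.9 CPM. Again WT replicate 1 was low and KO replicate 6 high, and 5 KO values were under the lowest WT value. The difference was −0.60 ± 0.26 (edgeR adjusted p = 0.326).

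The libraries fell in separate ranges for this head-to-head pair. KO replicate 6 and WT replicates 2, 3, 4 and 5 held 89.6 to 108 CPM of S100a1 and 12.7 to 15.9 CPM of S100a13. The other 7 libraries, 6 KO and WT replicate 1, held 24.4 to 42.6 and 5.61 to 10 CPM. The 2 genes were not matched in amount, with 3.18 to 7.44 S100a1 counts per S100a13 count. Because the strand setting of the counting is not known, reads in any stretch where the pair overlaps cannot be assigned with certainty.

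**Figure D2:**
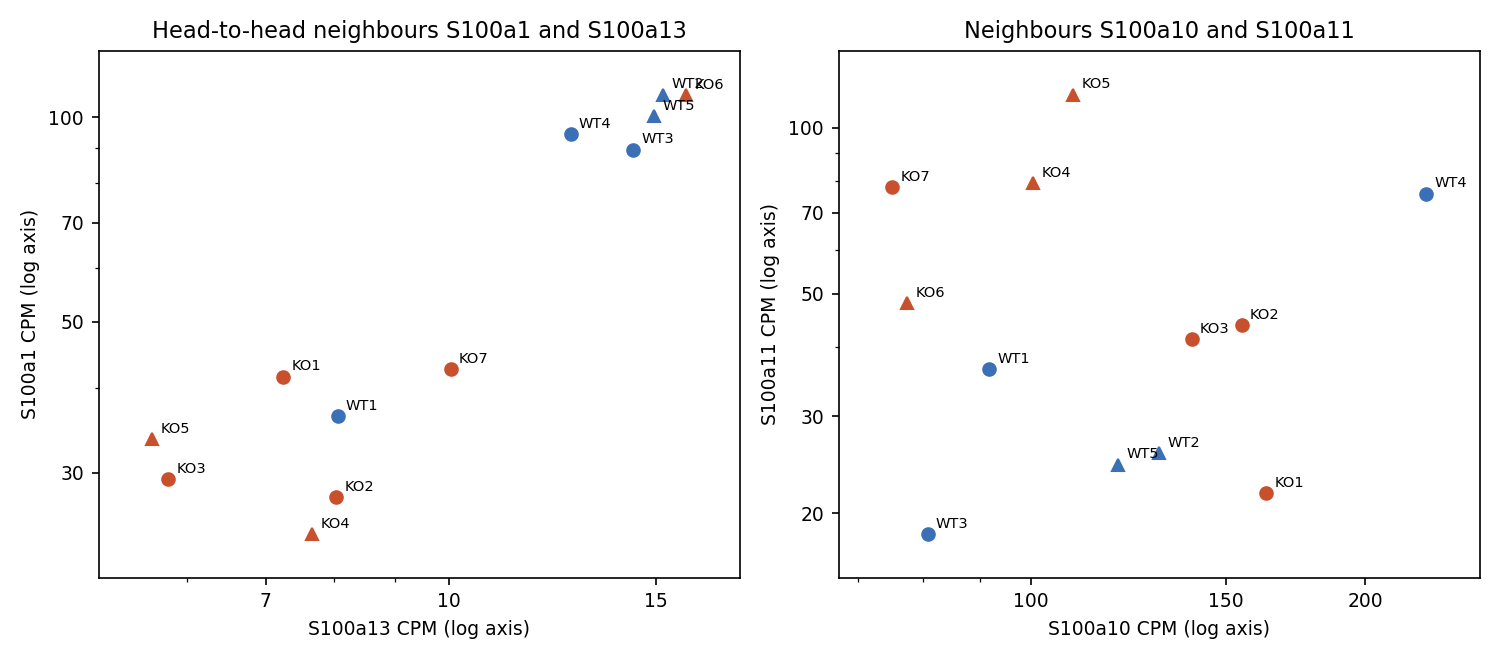
Left, S100a1 against S100a13, and right, S100a11 against S100a10, in CPM per library on log axes (WT blue, KO red, circles shallower and triangles deeper libraries). The left panel shows 5 libraries with at least 89.6 CPM of S100a1 apart from the other 7, and the right panel shows no shared order.

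Markers of other cell types moved with this pair in part, and their part in the difference was not tested. All 10 endothelial markers had a negative log2 fold change, 4 of them at an unadjusted p under 0.05 and 0 at an adjusted p under 0.05 (edgeR). Of all genes tested, 7.44% were lower at that unadjusted p, and 53.7% had a positive difference. The summed CPM of the 10 endothelial markers was 210 to 852 in KO and 522 to 814 in WT. The macrophage and monocyte list had 6 positive and 4 negative members of 10 tested, with a median log2 fold change of 0.08. Of these, 1 was lower at an unadjusted edgeR p under 0.05. KO replicate 6, where S100a1 and S100a13 were high, had the highest endothelial sum (852) and the highest macrophage and monocyte sum (3150, against 492 to 842 in the other KO libraries). WT replicate 1 did not follow, since its endothelial sum was 528 and its macrophage sum 1200, as in the other WT libraries, with S100a1 at 36.3 CPM. The macrophage sum of WT replicate 4, with S100a1 at 94.5 CPM, was 820, the lowest in WT. Defining markers were present in every library, with Cdh5 at 40.9 to 155 CPM and Csf1r at 63.3 to 325 CPM.

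S100a6, or calcyclin, a protein of proliferating and ductal cells that binds the ubiquitin ligase adaptor Cacybp, was the counted member with a positive difference. WT replicates 1 to 5 held 11.6, 10.5, 4.43, 25.0 and 8.73 CPM. The KO libraries ran from 9.91 over a median of 25.2 to 61.9 CPM, the highest being replicate 3. Of the 7, 4 lay above all WT libraries and 6 above the WT mean of log2 CPM. The fitted difference was 1.20 ± 0.52 (a 2.30-fold higher level, edgeR adjusted p = 0.316), and 0.87 without KO replicate 3.

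Neutrophil RNA moved with S100a6 in part. The summed CPM of 10 neutrophil markers was 1620 in KO replicate 3, 402 in replicate 6 and 251 in replicate 4, against 32.9 to 43.8 in the other KO libraries and 28.8 to 54.4 in WT. S100a6 stood at 61.9, 25.2 and 34.3 CPM in those 3 libraries. KO replicate 7, however, held 37.2 CPM of S100a6 with a neutrophil sum of 32.9, the lowest among KO libraries. S100a8 and S100a9, the neutrophil subunits of calprotectin, are 54.7 and 78.2 kb from S100a6, and had log2 fold changes of 3.26 ± 1.12 and 3.03 ± 1.04 (edgeR adjusted p = 0.246 for each). Over the 12 libraries S100a6 and S100a8 had a Pearson r of 0.72 and a Spearman rho of 0.64, or r = 0.64 without the 2 libraries farthest from the S100a6 median. With the neutrophil sum, S100a6 had a Pearson r of 0.70 and a lower Spearman rho of 0.44. These values describe libraries that share tissue composition and scaling.

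S100a11, or calgizzarin, binds annexins and takes part in membrane repair and growth control. WT replicates 1 to 5 held 36.5, 25.7, 18.3, 75.9 and 24.5 CPM, WT replicate 4 being far above the other WT libraries. KO replicates 1 to 7 held 21.8, 43.8, 41.4, 79.3, 114.7, 48.1 and 78.0 CPM. KO replicates 4, 5 and 7 lay above all WT libraries, and KO replicate 1 lay among the low WT ones. The difference was 0.75 ± 0.43 (a 1.69-fold higher level, edgeR adjusted p = 0.427), so it was not called and remains unresolved. Without WT replicate 4 it was 1.22 (adjusted p = 0.262).

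The S100a11 difference was set side by side in the depth classes. Within the shallower libraries it was 0.08 ± 0.54 (edgeR adjusted p = 0.972) and within the deeper ones 1.68 ± 0.40 (adjusted p = 0.325). Alone, the shallower libraries gave 11.1% of genes an unadjusted p under 0.05 and 0 adjusted calls, and the deeper ones 13.3%, with 0 genes called higher and 2 called lower (0.0123%). In the deeper class all 3 KO libraries (48.1 to 114.7 CPM) lay above both WT libraries (25.7 and 24.5 CPM). The interaction of genotype and depth class was 1.6 ± 0.80 (edgeR adjusted p = 0.538), where 9.55% of genes had an unadjusted p under 0.05 and 0 genes passed after adjustment. The depth class is a range of total counts and not a batch that the labels name.

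**Figure D3:**
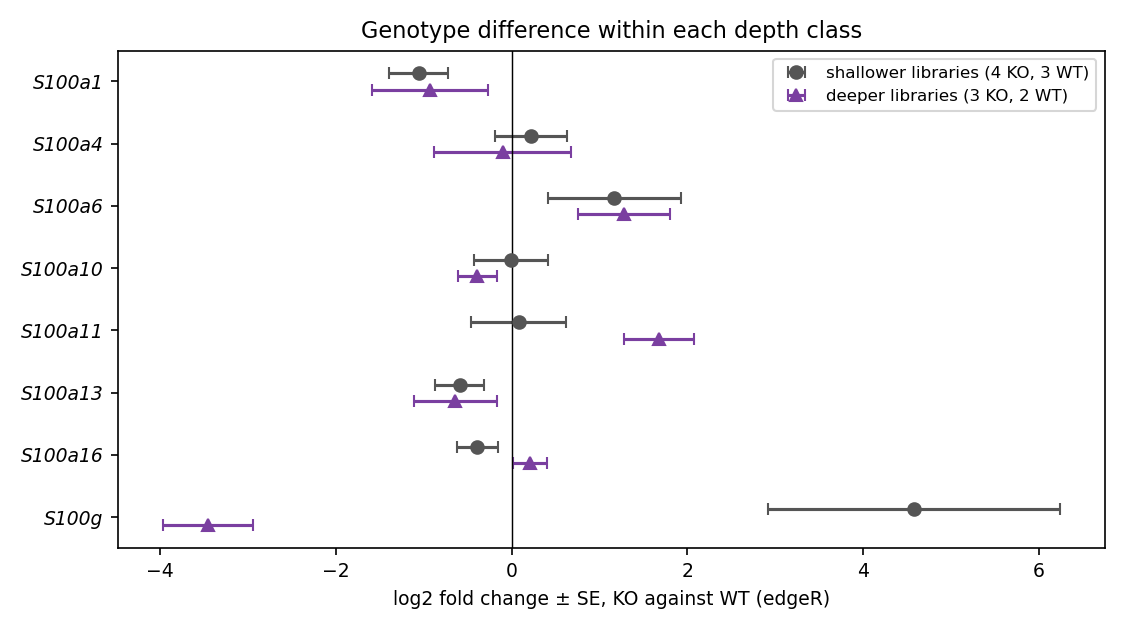
edgeR log2 fold change of KO against WT with its SE within the shallower (grey circles) and the deeper libraries (purple triangles). S100a1, S100a6 and S100a13 have similar values in both, S100a11 is at 0.08 and 1.68, and S100g has opposite signs.

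Spp1 (osteopontin), a gene of bile duct cells, macrophages and tumour cells, moved with S100a11 in its highest libraries. Spp1 stood at 4250 CPM in KO replicate 5, 885 in WT replicate 4, 627 in KO replicate 4 and 560 in KO replicate 7, the 4 libraries with the most S100a11. Spp1 made up most of the summed cholangiocyte markers in all libraries but KO replicates 1, 2 and 3 (sums of 46.9 to 4470 CPM in KO, 176 to 1040 in WT). The other duct markers were uneven in KO replicate 5, first in S100a11. It held 0.709 CPM of Krt19 and 1.6 CPM of Krt7, against 19.7 and 18.3 CPM in KO replicate 4. Its Epcam was at 12.7 CPM, next to 23.9 CPM in KO replicate 4 and 11.1 CPM in WT replicate 4, and its Cd24a at 83.8 CPM was below only KO replicates 3 (138 CPM) and 4 (113 CPM). S100a11 and the cholangiocyte sum had a Pearson r of 0.75 and a Spearman rho of 0.72 over the 12 libraries, and r = 0.85 over the 7 KO libraries. This was not particular to S100a11, since S100a16 and that sum had a Pearson r of 0.71 and a Spearman rho of 0.77. Over the 7 KO libraries r was 0.84 for S100a16. Of 9 cholangiocyte markers tested, 8 had a positive log2 fold change, 1 at an unadjusted p under 0.05, Cd24a, at 1.81 ± 0.72 (edgeR adjusted p = 0.291). Of all genes tested, 53.7% were positive and 7.25% were higher at that unadjusted edgeR p. The part of duct cells in the S100a11 values was not tested. Spp1 was singled out after its values were seen.

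**Figure D4:**
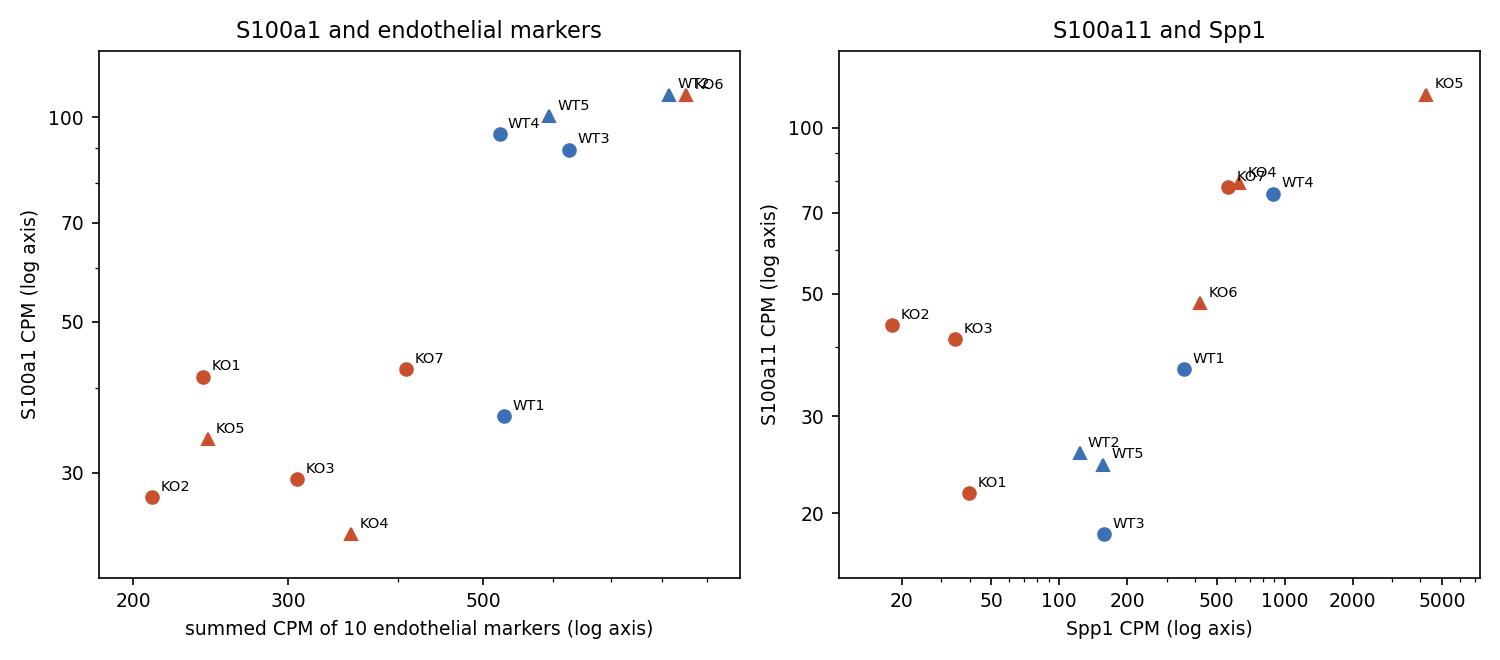
Left, S100a1 CPM against the summed CPM of 10 endothelial markers, and right, S100a11 CPM against Spp1 CPM, per library on log axes (WT blue, KO red, circles shallower and triangles deeper libraries). WT replicate 1 has an endothelial sum of 528 with S100a1 at 36.3 CPM, and KO replicate 5 is highest for both genes on the right.

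S100a10 was at 91.8, 130.6, 80.8, 227 and 119.9 CPM in WT replicates 1 to 5. The KO libraries ran from 75.0 over a median of 109 to 163 CPM, inside the WT range but for 2. The difference was −0.15 ± 0.28 (edgeR adjusted p = 0.826), and without WT replicate 4 it was 0.15. With the Xist class as covariate it was −0.49 ± 0.24 (adjusted p = 0.457), and in the deeper libraries −0.39 ± 0.22 (adjusted p = 0.443). Its neighbour S100a11 did not share its order, with a Pearson r of −0.02 and a Spearman rho of −0.17 over 12 libraries, or r = −0.61 over the 7 KO libraries. The S100a10 to S100a11 count ratio was 2.51 to 5.08 in WT and 0.952 to 7.49 in KO, lowest in KO replicates 5 and 7.

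S100a16, a widely expressed member with a weak calcium loop, was the steadiest of the 8. WT replicates 1 to 5 held 25.9, 34.5, 36.8, 37.8 and 31.4 CPM, and the KO libraries ran from 20.6 over a median of 31.4 to 42.3 CPM. The difference was −0.10 ± 0.20 (edgeR adjusted p = 0.839), and it was −0.39 ± 0.23 at lower and 0.21 ± 0.19 at higher depth. Its interaction with the depth class had an edgeR adjusted p = 0.559.

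S100a4, a myosin-binding member of fibroblasts, macrophages and T cells that is linked to cell migration, was low, and KO replicate 6 stood above the rest. WT replicates 1 to 5 held 2.93, 4.59, 2.88, 1.72 and 3.57 CPM. The KO libraries ran from 1.55 over a median of 2.89 to 7.87 CPM. The difference was 0.08 ± 0.42 (edgeR adjusted p = 0.945), and it was −0.30 without KO replicate 6 and −0.08 without WT replicate 4. KO replicate 6 had the highest macrophage sum, with Lyz2 at 1040 CPM against 171 to 325 CPM in the others. The genes most like S100a4 over the 12 libraries included Myo1g (Pearson r = 0.927) and Siglece (0.913), both known from leukocytes. In GENCODE, 51.7% of its exon bases are also exons of Gm42674 on the same strand, so its counts are uncertain.

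S100g, the intestinal calcium carrier calbindin-D9k, was counted in 11 of 12 libraries, with over 5 CPM in 3. KO replicate 3 held 23.8 CPM (494 counts), WT replicate 2 held 6.62 (290 counts) and WT replicate 5 held 5.86 (233 counts). Elsewhere S100g did not exceed 1.93 CPM, and WT replicate 3 had 0 counts, which allows up to 0.211 CPM. The fitted difference of 0.61 ± 1.30 (edgeR adjusted p = 0.851) turned to −1.61 without KO replicate 3. Shallower libraries alone gave 4.58 ± 1.66 (edgeR adjusted p = 0.403) and deeper ones −3.46 ± 0.51 (edgeR adjusted p = 0.261). The interaction was −8.05 ± 1.99 (edgeR adjusted p = 0.514). High values thus occurred in both genotypes, and within each depth class they were all in 1 genotype. They came from KO replicate 3 alone in the shallower class and from WT replicates 2 and 5 in the deeper class.

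S100b and S100a14 were below the filter and were not tested. S100b, the glial and dendritic cell member, had 87 counts (4.15 CPM) in WT replicate 4 and 60 (1.07 CPM) in KO replicate 4, at most 4 counts elsewhere, and 0 in 5 libraries. A count of 0 there allows 0.126 to 0.211 CPM, counting error only. Of the glial markers, Sox10 was at 0 in WT replicate 4 and KO replicate 4, and Gfra3 at 0 in both. Mbp was highest in these 2 libraries, at 17.5 and 13.5 CPM, followed by 12.5 CPM in KO replicate 5. Cdh19, another marker on the glial list, was at 13.3 CPM in WT replicate 4, against at most 1.6 CPM in the other libraries. S100a14, an epithelial member, had 16 counts in all, of which 8 were in KO replicate 4, 4 in KO replicate 6, 2 in KO replicate 7 and 2 in WT replicate 2.

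**Figure D5:**
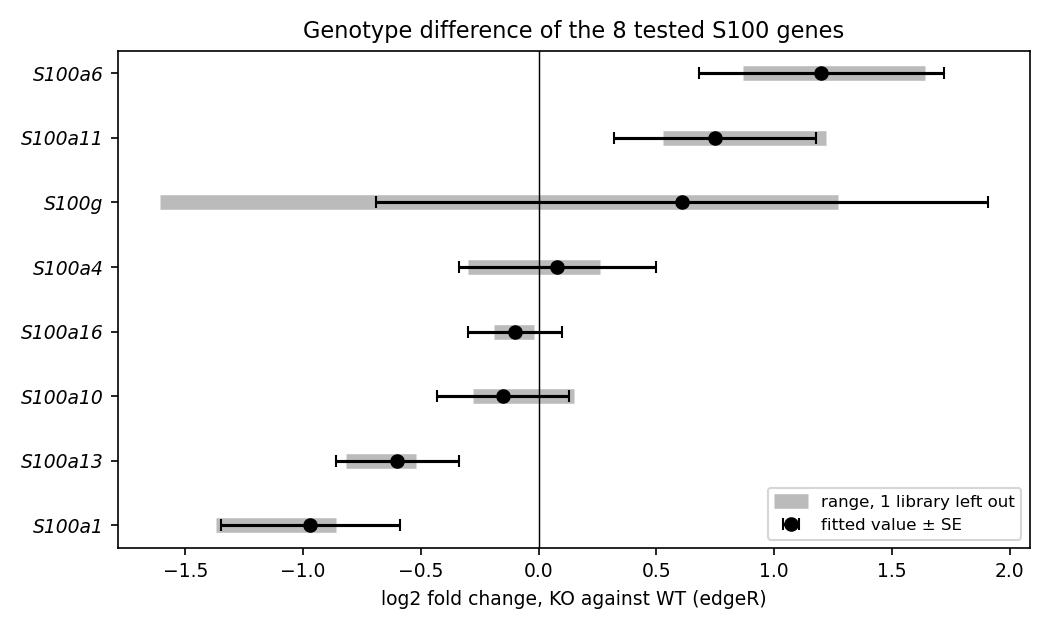
Fitted edgeR log2 fold change of KO against WT for the 8 tested S100 genes (points with SE) and the range of the value when 1 library is left out in turn (grey bars). The bars of S100a6, S100a11, S100a1, S100a13 and S100a16 stay on 1 side of 0, and those of S100g, S100a4 and S100a10 cross it.

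Among the binding partners, the annexins had 8 positive and 2 negative members of 10 tested, with a median log2 fold change of 0.16, and 2 lower at an unadjusted p under 0.05. Of all genes tested, 53.7% were positive and 7.44% were lower at that unadjusted edgeR p. Anxa2, the partner of S100a10 that also binds S100a11 and S100a6, was at 236, 53.1, 55.4, 204 and 79.1 CPM in WT replicates 1 to 5. Its KO values ran from 72.1 over a median of 236 to 306 CPM, with KO replicate 6 the lowest. The difference was 0.84 ± 0.44 (edgeR adjusted p = 0.396). Anxa4 was at 0.60 ± 0.29 and Anxa1, a partner of S100a11, at 0.85 ± 0.63. The 2 lower ones were Anxa13, an epithelial annexin, at −3.43 ± 1.10 (adjusted p = 0.222), and Anxa6 at −0.61 ± 0.27 (adjusted p = 0.329). Anxa13 exceeded 25 CPM in WT replicates 2, 4 and 5 but was at 0.80 and 1.33 CPM in WT replicates 1 and 3 and at most 7.90 CPM in KO.

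Of the other intracellular partners, 0 of 12 had an unadjusted p under 0.05 and the median was 0.01. Plat, the plasminogen activator that S100a10 helps to dock, was at 2.58 ± 1.28 (edgeR adjusted p = 0.372). It held 378 to 894 CPM in KO replicates 1, 2 and 3 and at most 58.7 CPM in the other KO libraries. WT replicate 1 held 178 CPM of Plat, and the other WT libraries 4.85 to 39.5 CPM. Il1a, released together with S100a13, was at −1.20 ± 0.65. Of the receptors, 0 of 6 tested had an unadjusted p under 0.05. Ager had 0 counts in every library, and Tlr4, a receptor of extracellular S100 proteins, was at 2.02 to 12.7 CPM in KO and 4 to 8.85 CPM in WT.

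The AP-1 subunits, whose motif occurs ahead of S100a11, had 9 positive and 1 negative member of 10, a median of 0.22 and 1 gene at an unadjusted p under 0.05. That gene was Fosl1, at 1.92 ± 0.84 (edgeR adjusted p = 0.321), with a median of 2.05 CPM in KO and 0.0754 CPM in WT. Jun was at 0.49 ± 0.39 (adjusted p = 0.571). Jun was highest in KO replicate 7 (201 CPM) and WT replicate 4 (158 CPM), both high in S100a11, while KO replicate 5, first in S100a11, had 87.9 CPM. Over the 12 libraries Jun and S100a11 had a Pearson r of 0.74 and a Spearman rho of 0.78, or r = 0.46 over the 7 KO libraries. Without the 2 libraries farthest from the S100a11 median r was 0.80. Fosl1 and S100a11 had a Pearson r of 0.41 and a Spearman rho of 0.31, and r = −0.52 over the 7 KO libraries. The actin-binding and galectin genes had 13 positive and 5 negative members of 18, with a median of 0.11 and Tpm1 alone at an unadjusted p under 0.05 (0.48 ± 0.21, adjusted p = 0.313). Beside both this list and the AP-1 list, 53.7% of all genes tested were positive. An unadjusted edgeR p under 0.05 with a positive difference was found for 7.25% of all genes.

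Of 33 genes of the table within 100 kb, 12 were tested. Beside S100a1, Chtop was at 0.09 ± 0.10, Snapin at 0.11 ± 0.16 and Ilf2 at 0.24 ± 0.16. Npr1, the natriuretic peptide receptor 45.1 kb from S100a1, was at −1.06 ± 0.49 (edgeR adjusted p = 0.341). Ctps2, whose bounds overlap S100g, was at 0.56 ± 0.20 (adjusted p = 0.25), and Pcnt, a centrosome gene near S100b, at 0.51 ± 0.21 (adjusted p = 0.293). S100a1 was most like Ndufb2, a subunit of respiratory complex I (Pearson r = 0.963 over 12 libraries), S100a16 most like the thyroid hormone receptor Thra (0.949), S100a6 most like Pstpip1 (0.948) and S100a10 most like the protease Tmprss4 and the deubiquitinase Usp14 (0.898 each). Among the genes most like S100a11 were Fam103a1 (0.960) and the adaptor Rassf1 (0.949). These are the highest of 14666 values each and are given as a description.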

How the data were processed

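Read counts per gene symbol were deposited by the authors as whole numbers without normalization. Reads were aligned with HISAT2 to mm10, per the submitters' processing notes. Counting program, strand setting and annotation remain not given in the sources used here. Groups (7 KO, 5 WT) follow the genotype labels, with replicate numbers in accession order. No pair within a group agreed within sampling noise (smallest chi-square per degree of freedom 81.4).

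All 12 libraries entered 1 fit of the counts in edgeR 4.0.16 under R 4.3.3 (filterByExpr, TMM, robust quasi-likelihood F-test, no covariates, Benjamini-Hochberg over all 14666 genes kept). Standard errors were derived as log2 fold change divided by root F, and log2 CPM took 2 as prior count. The scripts were tested on simulated data.

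Named genes are the members, the 3 genes with the highest Pearson r to each, up to 4 members per list with the smallest p, and a few fixed partners; further marker genes were named for their levels after these were seen. The members and lists were chosen with earlier results of these data known. Alternatives were RLE and upper-quartile scaling, DESeq2 1.42.0, limma 3.58.1 (voom with and without sample weights), 2 filters, no robust estimation, depth class and Xist class as covariates, and each library left out. Fits within depth classes and the principal transcript length were added after seeing the data. Intervals and limits for counts of 0 (3 counts) cover counting error only. Tf was matched as Trf, and S100a7l2 was not used here. Some genes that the naming rule gives are not reported here. Promoter letters and coordinates are from RefSeq (GRCm38.p6), and exons from GENCODE.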

Additional observations from a re-analysis of the deposited data

Results flagged for a closer look

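Within the 7 KO or 5 WT libraries, 6 values stood apart from their own group by Dixon's criterion. The 10 members were each searched in both genotypes, and the share of all genes that meet the criterion is not given here. Chance alone meets it in about 1 in 20 groups of normally distributed values, and whether these levels have that distribution was not tested. That rate does not hold for S100b and S100a14, whose counts were at or near 0 in most libraries. S100a1 was at 108 CPM in KO replicate 6, where the other KO libraries held 24.4 to 42.6, and at 36.3 CPM in WT replicate 1, where the other WT libraries held 89.6 to 108. S100a13 was at 8.05 CPM in WT replicate 1, against 12.7 to 15.2 in the rest of WT. S100g was at 23.8 CPM in KO replicate 3, against 0.288 to 1.93 in the rest of KO. S100b was at 4.15 CPM in WT replicate 4, against 0 to 0.0456 in the rest of WT. S100a14 was at 0.0456 CPM in WT replicate 2, which is 2 counts, against 0 in the rest of WT.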

How the results depend on the processing

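No paired analysis was possible because the labels give the libraries no shared replicate numbers. S100a1, S100a6, S100a11 and S100a13 kept the sign of their difference under every alternative run. Limma-voom with sample weights gave an adjusted p under 0.05 to these 4, at −1.34, 1.49, 1.01 and −0.78, where it called 938 genes higher and 1200 lower, and leaving out KO replicate 6 did so for S100a1 (−1.37). With 1 library left out, S100a1 ran from −1.37 to −0.86, S100a4 from −0.30 to 0.26, S100a6 from 0.87 to 1.64, S100a10 from −0.28 to 0.15, S100a11 from 0.53 to 1.22, S100a13 from −0.82 to −0.52, S100a16 from −0.19 to −0.02 and S100g from −1.61 to 1.27. The sign turned for S100a4 with voom without weights (−0.17), with weights (−0.38) and in the deeper libraries (−0.10), for S100a16 in the deeper libraries (0.21), and for S100g with voom without weights (−0.33), with weights (−1.41), with the Xist class as covariate (−0.11) and in the deeper libraries (−3.46). S100a10 moved to −0.49 with the Xist class as covariate. The cause was not tested.

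Genes called higher numbered 259 with DESeq2, 1 with voom without weights, 1 with the depth class as covariate and 0 to 14 with 1 library left out. Genes called lower numbered 242 with DESeq2, 4 with voom without weights, 2 with the depth class as covariate, 2 in the deeper libraries, 1 each with upper-quartile scaling, without a filter and with the 1 CPM filter, and 0 to 51 with 1 library left out. Members at an unadjusted p under 0.05 numbered 1 with the Xist class as covariate and 0 to 3 with 1 library left out (0 without WT replicate 2 or WT replicate 5). Low counts limit S100a4, S100b and S100a14.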
